A study of Mus musculus with 109 samples.

Results

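Bait B26 is a HindIII site in an intron of Whsc1l1, in the part of mouse chromosome 8 nearer the centromere, whose contacts were read by 4C-seq in 12 of the 109 libraries of the series. The 12 libraries were those whose title names the bait B26. 4C-seq (circular chromosome conformation capture with sequencing) joins the fragments that lie close to one chosen site in the fixed nucleus and counts reads at each HindIII site they came from. The cells were C127, a line derived from a mouse mammary tumour, fixed with 1% formaldehyde for 10 min, cut with HindIII and then DpnII, and read with 50-base reads.

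The study followed how contacts are set up again as cells leave mitosis. Cells were blocked in mitosis by nocodazole, a drug that depolymerises microtubules, for 4 h and then released for 0.5, 1, 2, 3 or 4 h. Cells labelled G2 were taken 15 h after release, and cells labelled G0 after 5 days without serum. All groups were C127 cells with the same crosslink and enzymes. The B26 libraries comprised 2 titled G0, 1 titled G2, 1 titled mitosis, 2 titled 30 min, 2 titled 1 h, 1 titled 3 h and 1 titled 4 h, each titled as a biological replicate. A further 2, titled 2 h, were technical replicates and were summed as 1 sample in every mean, so that n was 11 at most. In the tests the 30 min and 1 h libraries formed the first hour (n = 4) and the 2 h, 3 h and 4 h samples formed the group of 2 to 4 h (n = 3). No expression was measured, so the cell type could not be checked against marker genes.

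A chromosome in an interphase nucleus occupies its own territory, and contacts along it fall off with distance from any site. Within the territory, active gene-rich chromatin tends to meet other gene-rich chromatin and gene-poor chromatin tends to meet gene-poor chromatin, an arrangement called compartments. Mitotic chromosomes lose most of this pattern and regain it in early G1. Whsc1l1 encodes a histone H3 lysine methyltransferase and lies beside Fgfr1, a receptor for fibroblast growth factors, in a block that is often amplified in human breast tumours.

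The sequence that fixes the viewpoint is the primer, which ends on the HindIII site. It is printed with the bait region so that the cut can be seen in its place, in mm9 and on the plus strand, with AAGCTT in capitals. The primer covers chr8:26774313-26774332 and matches the genome once, and the bait region covers chr8:26774273-26774372.
B26 primer: ttgagtttgacgccAAGCTT
B26 bait region: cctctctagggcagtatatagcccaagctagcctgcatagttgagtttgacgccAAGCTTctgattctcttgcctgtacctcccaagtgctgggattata
The site lay between the Whsc1l1 exon that ends at 26774071 and the exon that starts at 26776502, in a gene that runs from 26712073 to 26830139 on the plus strand (ENSMUSG00000054823.8). The next HindIII site on the distal side was at 26779218, and the fragment on the proximal side began at 26766033. In 4 libraries (G0 replicate 1, mitosis replicate 1, 30 min replicate 2 and 1 h replicate 2) the labels give the primer with a 4-base prefix, in capitals here.
B26 primer with prefix: TAATttgagtttgacgccaagctt

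A further 3 windows are printed because the results return to them. The first is the most read site of a gene-free stretch 393 kb proximal to the bait (chr8:26381263-26381322). The next lies in an intron of Ank1 (chr8:24127466-24127525). Among chromosome 8 sites beyond 2 Mb captured in every library, it had the highest geometric mean of read share. The last is a site of Sfi1 on another chromosome that every library held (chr11:3086905-3086964). Each is 60 bases of the mm9 plus strand around the HindIII site, in capitals, and matched the genome once.
Gap site: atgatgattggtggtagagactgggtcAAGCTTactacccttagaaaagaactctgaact
Ank1 site: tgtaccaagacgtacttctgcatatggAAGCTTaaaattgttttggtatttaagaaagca
Sfi1 site: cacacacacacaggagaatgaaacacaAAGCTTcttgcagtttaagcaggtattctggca

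The B26 libraries held 678688 to 5293681 reads and 7255 to 55230 captured sites, a captured site being a HindIII site with 1 read or more. The deposited table listed 823352 HindIII sites, of which 1228 lay 20 kb to 2 Mb from the bait (near sites, 606 proximal and 622 distal), 38242 lay farther away on chromosome 8 (long-range sites) and 783872 lay on other chromosomes. Sites within 20 kb of the bait were left out. Reads come from PCR without molecular identifiers, so captured sites are given beside reads.

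The titles of some libraries could not be taken at face value. Libraries titled 1 h replicate 2 and 2 h technical replicate 1 had 35866 captured sites of other chromosomes in common, which was 91.5% of the first library's and 96.7% of the second's. That overlap was 19.3 times the number given by the product of their totals over all sites. Their read numbers at shared sites correlated with r = 0.717. They are titled as different times and were kept as 2 libraries, and whether they are 1 library could not be settled from the reads, because every pair of the 12 libraries differed beyond counting noise at near sites. The pair titled as technical replicates of 2 h shared 1962 sites, 1.90 times, which lies within the range of pairs of different titles. They were summed as the labels direct. Kept as 2 libraries, they left the near difference between 2 to 4 h and the first hour at 11.7 percentage points (exact permutation p = 0.171). Library G0 replicate 1 shared 29.4% of its sites with 1 h replicate 2 (5.87 times) and 26.8% with 2 h technical replicate 1. Of the sites of G0 replicate 2, 15.4% were shared with 2 h technical replicate 2 (5.51 times). Libraries 30 min replicate 2 and 3 h replicate 1 stood at 4.87 times, and the other 61 of 66 pairs lay at 2.57 times or less with a median of 1.77. The cause of the sharing was not tested. Values are therefore given by title and also in the order of the columns of the deposited table, which is G0 replicate 2, G0 replicate 1, G2, mitosis, 1 h replicate 1, 1 h replicate 2, the pair of 2 h technical replicates, 30 min replicate 1, 30 min replicate 2, 3 h and 4 h. Apart from the G0 replicates, this is the alphabetical order of the titles. It is therefore not independent of them and is not known to be an order of time or of sequencing.

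Near contacts made up 31.1% to 71.4% of the chromosome 8 reads, depending on the library. In column order the near share was 33.5% and 31.1% in G0, 34.7% in G2, 37.2% in mitosis, 32.3% and 46.8% at 1 h, 48.6% and 55.5% in the 2 h technical replicates, 53.5% and 56.5% at 30 min, 60.4% at 3 h and 71.4% at 4 h. Columns 1 to 5 all lay below columns 6 to 12, and this boundary fell between the pair of libraries titled 1 h. The boundary was picked from these values. Measures given below that share it come from the same libraries and are not independent of each other. The library titled mitosis lay beside G0 and G2, and both 30 min libraries lay beside 2 h and 3 h.

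The share of reads that stayed on chromosome 8 was highest in G0 and lower in most later columns. It was 89.1% and 81.9% in G0, 49.1% in G2, 72.8% in mitosis, 75.4% and 59.5% at 1 h, 60.1% and 58.2% at 2 h, 59.5% and 30.7% at 30 min, 50.8% at 3 h and 47.1% at 4 h. G0 was highest and 30 min replicate 2 lowest, and G2 was the only one of the first 5 columns under 60.1%. Counted in captured sites, chromosome 8 held 63.6% and 53.6% in G0, 35.2% in G2, 39.5% in mitosis, 45.7% and 29.0% at 1 h, 29.5% and 31.7% at 2 h, 31.4% and 17.4% at 30 min, 31.8% at 3 h and 25.2% at 4 h. Library 30 min replicate 2 was lowest on both scales.

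**Figure D1:**
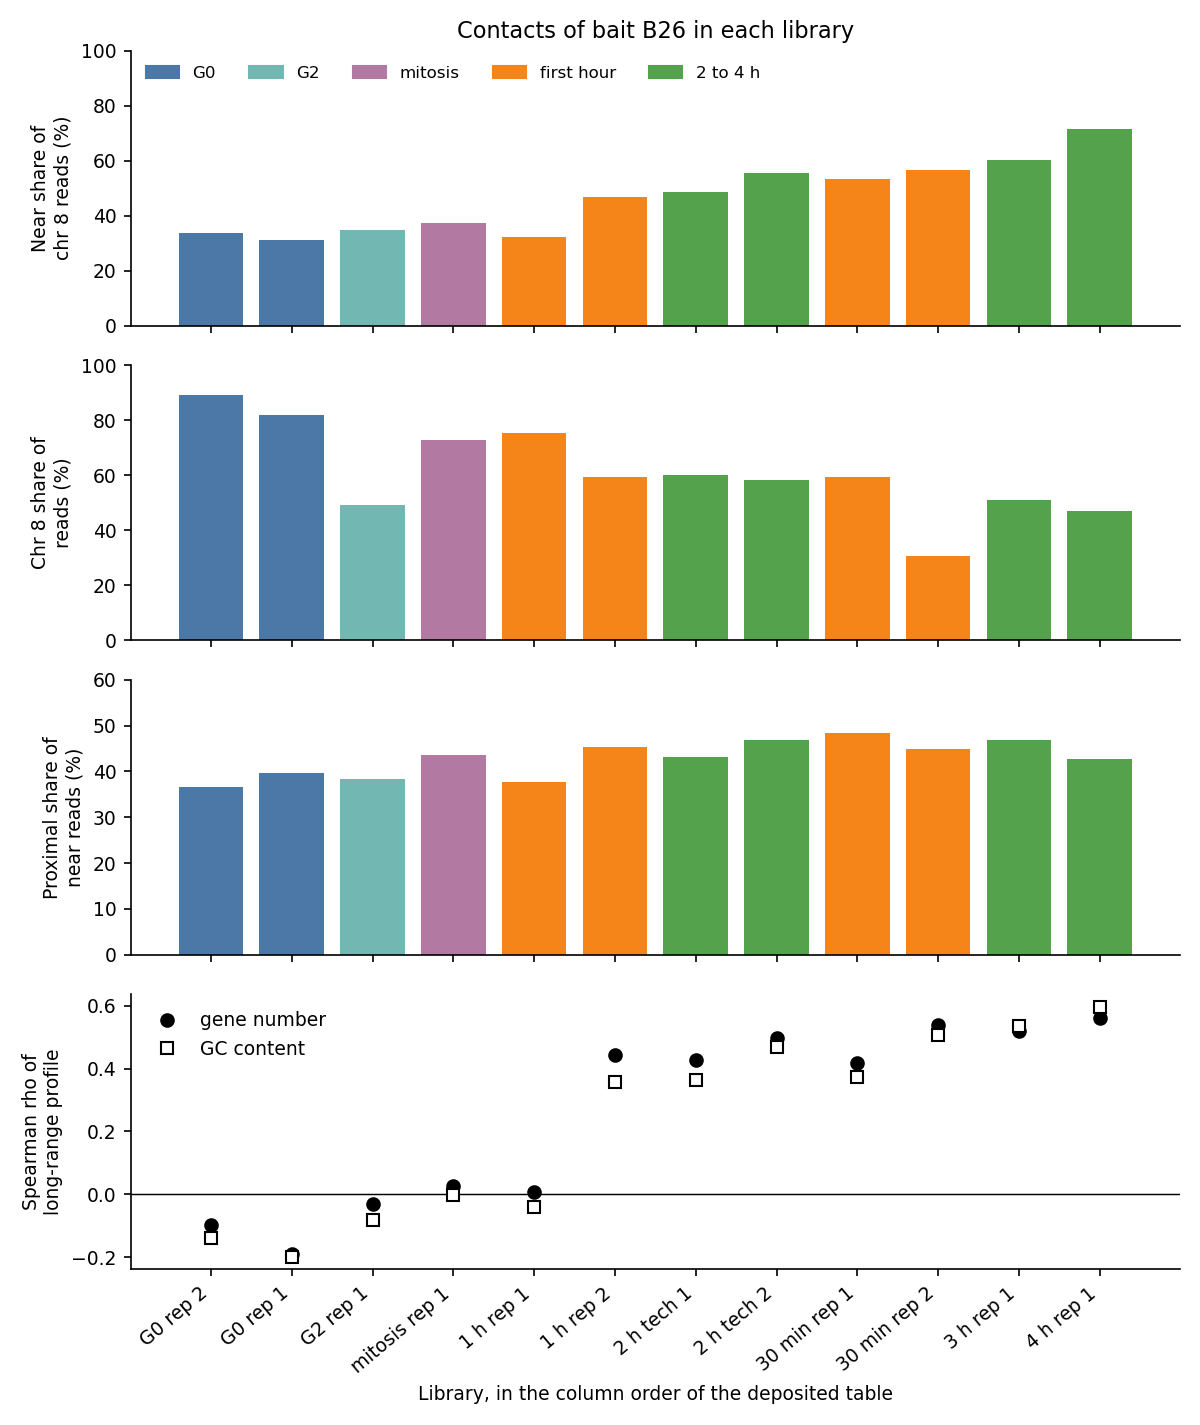
Bars give, for each of the 12 B26 libraries in the column order of the deposited table (x axis, coloured by titled group), the near share of chromosome 8 reads, the chromosome 8 share of reads and the proximal share of near reads (percent), and the lowest panel gives Spearman's correlation of the long-range profile with gene number (filled circles) and GC content (open squares). The near share lies between 31.1% and 37.2% in columns 1 to 5 and between 46.8% and 71.4% in columns 6 to 12, and the correlation steps up at the same boundary.

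The captured sites of the near window did not follow the reads. Of the 1228 near sites, 940 and 955 were captured in G0, 847 in G2, 998 in mitosis, 933 and 915 at 1 h, 908 and 830 at 2 h, 935 and 553 at 30 min, 485 at 3 h and 468 at 4 h. The last 3 columns captured the fewest, from 38.1% to 45.0% of the window, against up to 81.3% in mitosis. As a share of all captured chromosome 8 sites, near sites were 7.04% and 7.28% in G0, 15.0% in G2, 5.57% in mitosis, 6.39% and 5.72% at 1 h, 5.85% and 8.17% at 2 h, 6.79% and 15.5% at 30 min, 21.0% at 3 h and 25.2% at 4 h. The high values belonged to libraries with few captured sites in all, whose part in this share was not tested. Few captured sites did not mean few reads: 30 min replicate 1 had the fewest reads and a near-site share of 6.79%, and 3 h had the most reads per captured site (329).

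Within chromosome 8 the columns differed in their reads by distance class, each class being a share of the same total. From 20 to 100 kb the share of chromosome 8 reads was 9.40% and 7.86% in G0, 9.60% in G2, 12.9% in mitosis, 10.1% and 20.8% at 1 h, 21.9% and 26.5% at 2 h, 25.9% and 26.6% at 30 min, 30.0% at 3 h and 32.7% at 4 h. Columns 1 to 5 did not overlap columns 6 to 12. From 2 to 10 Mb the order was inverted, with 29.4% and 30.9% in G0, 30.4% in G2, 21.9% in mitosis, 24.3% and 14.9% at 1 h, 14.4% and 12.3% at 2 h, 13.4% and 12.5% at 30 min, 11.9% at 3 h and 8.59% at 4 h. Beyond 50 Mb the share was 1.81% and 2.42% in G0, 3.78% in G2, 4.10% in mitosis, 4.45% and 10.2% at 1 h, 10.1% and 10.5% at 2 h, 10.8% and 15.3% at 30 min, 11.9% at 3 h and 8.17% at 4 h. The farthest class was thus low in the columns where the 2 to 10 Mb class was high. Between 500 kb and 2 Mb, inside the near window, the share ranged from 11.1% to 14.4% in columns 1 to 5 and from 6.30% to 8.39% in columns 6 to 12, so the higher near share of the later columns lay within 500 kb of the bait.

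Grouped by title, none of the 3 differences after mitosis passed the permutation test. The near share was 61.7% ± 9.16 (SD, n = 3) at 2 to 4 h and 47.3% ± 10.8 (n = 4) in the first hour, a difference of 14.4 percentage points with p = 0.171 by a two-sided exact permutation test, whose smallest possible p here is 0.0286. The chromosome 8 share was 52.3% ± 5.99 against 56.3% ± 18.6 (difference -4.01, exact permutation p = 0.657). That difference became 2.37 without 1 h replicate 1. The proximal share of near reads was 45.1% ± 2.12 against 44.1% ± 4.57 (difference 0.99, exact permutation p = 0.80), and it too turned, to -1.15, without 1 h replicate 1. Without the 2 libraries that shared most of their sites, the near difference was 15.0 (exact permutation p = 0.20) and the chromosome 8 difference -3.15 (exact permutation p = 0.80).

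Between G0 and 2 to 4 h the groups did not overlap in either share. G0 had a near share of 32.3% ± 1.73 (n = 2), lower by 29.4 percentage points, and a chromosome 8 share of 85.5% ± 5.12, higher by 33.3. Both gave an exact permutation p of 0.1, the smallest that 2 against 3 samples allow, so this design cannot reach 0.05. Labels and columns cannot be told apart here, since the G0 libraries were the first 2 columns and the 3 h and 4 h libraries the last 2. Without the 2 libraries in doubt the differences were -30.2 and 33.5. Counted in captured sites they were -9.94 (exact permutation p = 0.40) and 31.4. On that scale the groups overlapped in near share, with 7.04% and 7.28% in G0 against 5.07% at 2 h, 21.0% at 3 h and 25.2% at 4 h.

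The near share of B26 was compared with that of 3 other baits of chromosome 8 in libraries of the same title, by exact sign-flip permutation with Benjamini-Hochberg adjustment over 6 comparisons. Here and below, libraries of the same title were taken to share a culture across baits, which no label states. At G0 replicate 1 and G2 the baits ran in opposite order. Their chromosome 8 shares of reads were 81.9% and 49.1% at B26, and 84.65% and 51.2% at B44. At B87 they were 54% and 74.8%, and at B118 52.5% and 79.8%. Whether these titles were exchanged between baits was not tested, so pairing with B87 and B118 is in doubt there. Bait B87, in an intron of Dnase2a, was lower than B26 in 10 of 10 titles, 43.6% against 47.3%, with differences of 2.12 to 6.11 (mean 3.75 ± 1.42, adjusted exact permutation p = 0.0117). Bait B44, beside Zfp42, had a mean lower than the 46.4% of B26 over the same titles (difference 14.4 ± 15.2, higher at B26 in 9 of 11 titles, adjusted exact permutation p = 0.0293), but the adjusted p was 0.0615 without the libraries in doubt. Bait B118, near Maf, had 51.4% against 47.3% (difference -4.03 ± 7.13, adjusted exact permutation p = 0.141). On captured sites the B87 difference was 0.11 (adjusted exact permutation p = 0.991) and the B44 difference was -0.02. Paired by title, B26 thus stood above these baits in reads and not in sites. The near tests against B87 and B118 include G0 replicate 1 and G2, so they hold only if pairing by title is right.

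The chromosome 8 share of reads was 61.4% at B26 and 67.0% at B44, lower at B26 in 10 of 11 titles (difference -5.68 ± 5.40, adjusted exact permutation p = 0.0205). On captured sites the sign turned: B26 was higher by 12.9 percentage points (adjusted exact permutation p = 0.0117). Against B87 the difference was 2.17 ± 13.1 (adjusted exact permutation p = 0.533) and against B118 -8.33 ± 16.8 (adjusted exact permutation p = 0.178). For both baits the lowest difference was at G2 (-25.7 and -30.7) and the highest at G0 replicate 1 (27.9 and 29.4). Pairing is in doubt at these titles as above, so the tests against B87 and B118 cannot decide whether the baits differ.

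In the near window the genes lie in blocks separated by gaps of 200 kb or more without a gene. B26 sits in a block of 17 genes from Fgfr1 to Thap1 (26624126 to 27273412, 208 HindIII sites). In reads per 1000000 chromosome 8 reads (RPM of chromosome 8), divided by the number of HindIII sites, this block held 836 and 701 in G0, 810 in G2, 985 in mitosis, 825 and 1407 at 1 h, 1467 and 1701 at 2 h, 1632 and 1781 at 30 min, 1972 at 3 h and 2308 at 4 h. It was the block with the most reads per site in 12 of 12 libraries, and columns 1 to 5 were again below columns 6 to 12.

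The proximal gap, 312 kb with no gene between Tacc1 and Fgfr1 (26311922 to 26624125, 94 sites), came next in every library. On the same scale its reads per site were 301 and 295 in G0, 340 in G2, 569 in mitosis, 343 and 938 at 1 h, 958 and 1259 at 2 h, 1228 and 1358 at 30 min, 1269 at 3 h and 1656 at 4 h. The ratio of the bait block to this gap was 1.31 to 2.78, with a median of 1.54, so this stretch without genes was read more densely than any gene block but the bait's own. It also lay nearer the bait, at 150 to 462 kb, than the other gene blocks, which began at 462 kb or farther. The part of distance in this ranking was not tested. The gene block beyond it, of 12 genes from 1810011O10Rik to Tacc1 (25548088 to 26311921, 220 sites), held 161 to 236 with a median of 179 and showed little movement along the columns. Farther out still, a block with Zmat4 ran from 10.8 to 151.

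On the distal side the next 814 kb (27273413 to 28087807, 255 sites) hold no gene. That gap held 163 and 159 reads per site in G0 on that scale, 182 in G2, 128 in mitosis, 140 and 57.8 at 1 h, 61.8 and 60.7 at 2 h, 66.9 and 57.2 at 30 min, 45.7 at 3 h and 54.9 at 4 h. The block of 14 genes beyond it, from Zfp703 to Poteg (28087808 to 28605644, 144 sites), held 104 and 121 in G0, 102 in G2, 95.4 in mitosis, 102 and 76.4 at 1 h, 78.6 and 52.0 at 2 h, 59.4 and 32.6 at 30 min, 41.3 at 3 h and 37.8 at 4 h. Both distal stretches were thus highest in columns 1 to 5, the reverse of the bait block. The gene block exceeded the gap in 2 of 12 libraries, 1 h replicate 2 and 2 h technical replicate 1, the pair that shared most of their sites. The median ratio was 0.752. The gap lay 499 to 1313 kb from the bait and the block 1313 to 1831 kb, and the part of distance was not tested.

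**Figure D2:**
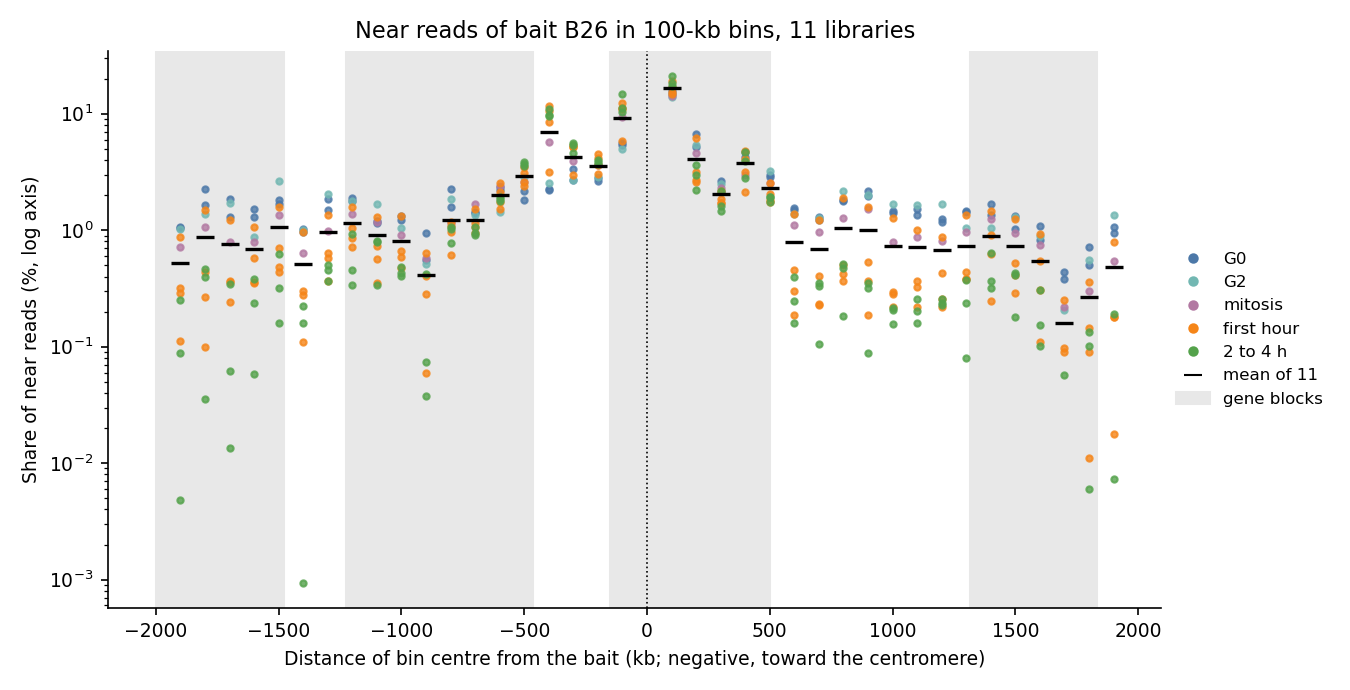
Share of near reads (percent, log y axis) in 100-kb bins against the distance of the bin from the bait (kb, x axis), with 1 point a sample coloured by titled group, the mean of 11 as a black bar and gene blocks shaded. At -400 kb, in the gap without genes, the points run from 2.21% to 11.8%, and beyond +500 kb the points of G0 and G2 lie above those of 2 to 4 h. A bin without reads cannot be drawn on a log axis.

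The rule for naming bins took the 5 bins of 100 kb with the highest share of captured near sites on each side, given here as shares of near reads (mean ± SD, n = 11). On the distal side the first was the bin at +100 kb (from 26824314), with the end of Whsc1l1 and with Ppapdc1b, a lipid phosphatase gene, Ddhd2, a phospholipase gene, Bag4, a co-chaperone gene, and Lsm1, an mRNA decay factor gene: 16.5% ± 2.29. The bin at +200 kb, with Star, the cholesterol carrier of steroid synthesis, and Ash2l, a subunit of histone H3 lysine 4 methyltransferases, held 4.12% ± 1.56. The bins at +400 and +500 kb, with Fnta, Hook3, Rnf170 and Thap1, held 3.77% ± 0.88 and 2.29%. The bin at +800 kb, without a gene, held 1.04%.

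On the proximal side the bin at -100 kb (from 26624313), with Fgfr1, Letm2 and the start of Whsc1l1, held 9.28% ± 3.32. The bins at -300 and -400 kb, in the gap without genes, held 4.27% ± 1.18 and 6.99% ± 3.85. The bin at -500 kb, with Tacc1, which encodes a coiled-coil protein of the centrosome, held 2.92%, and the bin at -1200 kb, with 1810011O10Rik, held 1.16%. The gap bin at -400 kb therefore had a higher mean than the gene-bearing bin on its far side and the widest spread of these bins.

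That bin varied by library more than its neighbours. Its share of near reads was 2.27% and 2.21% in G0, 2.52% in G2, 5.74% in mitosis, 3.17% and 8.42% at 1 h, 9.60% at 2 h, 10.5% and 11.8% at 30 min, 9.82% at 3 h and 10.9% at 4 h. The single most read site of this bin, the gap site printed above (26381290, 69.4 kb from Tacc1 and between genes, picked after its values were seen), was captured in 12 of 12 libraries. It took 0.26% and 0.15% of near reads in G0, 0.05% in G2, 0.82% in mitosis, 0.46% and 2.23% at 1 h, 1.91% and 2.71% at 2 h, 2.65% and 2.68% at 30 min, 1.96% at 3 h and 2.11% at 4 h. Columns 6 to 12 all exceeded columns 1 to 5, with mitosis the highest of the latter. For comparison, the most read near site beyond 50 kb lay in an exon at the end of Whsc1l1 (26830061). It took 1.05% to 1.48% in columns 1 to 5 and 1.62% to 2.54% in columns 6 to 12, the same split over a narrower range.

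The 2 sides of the bait were not mirror images. Of 19 pairs of bins at equal distances, the distal bin held the higher share in 11 of 11 libraries at 50 to 150 kb (16.5% against 9.28%, log2 ratio 0.91 ± 0.48) and at 1350 to 1450 kb (log2 ratio 1.29), the place of the Zfp703 block. The proximal bin was higher in 11 of 11 at 250 to 350 kb (log2 ratio of distal over proximal -1.04), 550 to 650 kb (-1.76), 650 to 750 kb (-1.20), 1150 to 1250 kb (-0.98) and 1650 to 1750 kb (-2.33). The distances from 550 to 750 kb set the Tacc1 block against the distal gap. These shares were not divided by HindIII sites, whose numbers differed in most of these pairs. Distal and proximal, the sites numbered 43 and 31 at 50 to 150 kb and 29 and 29 at 1350 to 1450 kb. Where the proximal bin was higher they numbered, in the order above, 24 and 33, 31 and 26, 27 and 27, 25 and 33, and 26 and 40. The part of site number was not tested. In sum over the window, the proximal side held 36.7% and 39.6% of near reads in G0, 38.4% in G2, 43.6% in mitosis, 37.7% and 45.4% at 1 h, 43.2% and 46.9% at 2 h, 48.5% and 44.8% at 30 min, 46.8% at 3 h and 42.7% at 4 h. It was under 50% in every library.

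A list of 33 genes of the region was followed, chosen with earlier results of these data known. Of these, 26 lay in the near window and 7 outside it, and all had reads in 12 of 12 libraries within the gene or 10 kb of it. Growth factor signalling near the bait was represented by Fgfr1, with 10270 and 8902 RPM of chromosome 8 in G0, 8883 in G2, 17580 in mitosis, 9304 and 22980 at 1 h, 21750 and 26780 at 2 h, 28050 and 30510 at 30 min, 38560 at 3 h and 35050 at 4 h. The chromatin gene Whsc1l1, counted beyond 20 kb from the bait, ranged from 57210 in G0 replicate 1 to 261000 at 4 h. The lipid enzyme genes Ddhd2 and Ppapdc1b ranged from 26810 to 100100 and from 13370 to 74270. These genes next to the bait all had their lowest values in columns 1 to 5. With 10 kb on both sides, the windows of Whsc1l1, Ppapdc1b and Ddhd2 overlap. Some reads were therefore counted for several of these genes, and their values are not independent.

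Farther out, Tacc1 held 4790 and 4009 RPM in G0, 7472 in G2, 6717 in mitosis, 5527 and 12050 at 1 h, 14270 and 13460 at 2 h, 11760 and 10590 at 30 min, 15340 at 3 h and 16900 at 4 h. Among the membrane metalloprotease genes proximal to it, the widely expressed Adam9 ranged from 4984 to 10430, and Adam5, a gene of male germ cells, ranged from 520 to 3554. The gene of the transcriptional repressor Zfp703, distal to the gap, held 1109 and 922 in G0, 625.3 in G2, 629 in mitosis, 958 and 468 at 1 h, 594 and 410 at 2 h, 520 and 718 at 30 min, 210 at 3 h and 367 at 4 h. Its neighbours Rab11fip1, a regulator of endosome recycling, and Erlin2, an endoplasmic reticulum protein gene, ranged from 835 to 3168 and from 730 to 2695.

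Of the genes just beyond 2 Mb, Unc5d, a netrin receptor gene 2983 kb distal, held 17090 and 18980 RPM in G0, 20730 in G2, 13660 in mitosis, 14120 and 6380 at 1 h, 6217 and 4527 at 2 h, 7006 and 6161 at 30 min, 2285 at 3 h and 2095 at 4 h. Columns 1 to 5 were all above columns 6 to 12 at this long neuronal gene. Ank1, an ankyrin gene on the proximal side, moved less and ranged from 4748 to 7902. Plat, the gene of tissue plasminogen activator, ranged from 1117 to 3907, and the Wnt antagonist gene Sfrp1 from 269 to 3324.

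Bins of 100 kb between 50 kb and 2 Mb were tested in 1 edgeR quasi-likelihood fit a bait, with adjustment over the bins of all 6 chromosome 8 baits. Between 2 to 4 h and the first hour, 0 of 38 B26 bins passed an adjusted p of 0.05 by edgeR (0% of 228 bins over all baits), 2 had an unadjusted p under 0.05, and DESeq2 called 0. Between G0 and 2 to 4 h, 8 of 38 B26 bins passed, against 9.65% over all baits: 5 were lower in G0 (7.89% over all baits) and 3 higher (1.75%). G0 and 2 to 4 h libraries did not overlap in any of the 8, but they did not overlap in 64.5% of all near bins either.

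The 5 bins lower in G0 were consecutive, from Tacc1 through the proximal gap to Fgfr1. The largest difference was at -400 kb (log2 change -3.62 ± 0.79 SE, adjusted p = 0.00503 by edgeR), where near reads were 2.24% in G0 and 10.1% at 2 to 4 h. The bin with Fgfr1 and Letm2 changed by -2.58 ± 0.74 SE (adjusted p = 0.0309 by edgeR) and the bin of Tacc1 by -2.34 ± 0.54 SE (adjusted p = 0.00513 by edgeR). The gap bins at -300 and -200 kb changed by -2.22 and -1.94 (adjusted p = 0.0309 and 0.0312 by edgeR). The 3 bins higher in G0 were consecutive too, at +900, +1000 and +1100 kb in the distal gap (1.62, 1.48 and 1.39, adjusted p = 0.0371, 0.0393 and 0.0449 by edgeR). At +900 kb the share of near reads was 2.06% in G0 and 0.254% at 2 to 4 h.

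These directions were the same as shares of near reads and as RPM of chromosome 8, but the sizes depended on the scaling. The log2 changes above follow the TMM scaling of edgeR, with factors of 1.58 and 1.64 in G0 and 0.62 to 0.80 at 2 to 4 h. As plain shares of near reads they were -2.18 at -400 kb and 3.02 at +900 kb. The calls depended on the scaling and on single libraries. Scaling by read totals also called 8 bins, of which 6 were higher and 2 lower in G0, and shifted the median log2 change of the 38 bins from 0.63 to 1.802. With DESeq2, 13 were called, 1 higher and 12 lower. No bin was called without 4 h or without G0 replicate 1, 2 without G0 replicate 2, 3 without 3 h, 5 without 30 min replicate 2 and 11 without 1 h replicate 1 or without 2 h. On captured sites 0 were called.

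Long-range and other-chromosome bins gave no calls with edgeR at the settings used for the near bins. Between 2 to 4 h and the first hour, 0 of 244 long-range bins of 500 kb passed (0% over all baits, 5 with an unadjusted p under 0.05, 1 by DESeq2), and 0 of 510 other-chromosome bins of 5 Mb passed (0% over all baits, 33 unadjusted, 1 by DESeq2). Between G0 and 2 to 4 h, 0 of 244 long-range bins passed with edgeR, at a smallest adjusted p of 0.0651 (0% over all baits, 98 unadjusted, 92 by DESeq2). That count was 23 scaled by read totals, 40 in 1-Mb bins, 44 on captured sites, 37 without 1 h replicate 1 and 5 without 2 h, so it depended on the setting. The same contrast called 0 of 510 other-chromosome bins with edgeR (0% over all baits, 55 unadjusted, 9 by DESeq2). The spread was wide: the biological coefficient of variation between libraries of a title group was 0.59 in near bins, 0.77 in long-range bins and 0.39 in other-chromosome bins.

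To describe where on chromosome 8 B26 was captured beyond 2 Mb, captured sites in 500-kb bins were set against a smooth curve of distance, after thinning each library to 1370 captured sites. Values are log2 of observed over expected captured sites, over 242 bins with 50 HindIII sites or more. Averaged over 11 samples, 20 bins were above 0 in all 11 and 34 were below 0 in all 11. The highest bin, 21.0 Mb distal at 47.5 Mb, holds the interferon regulatory factor gene Irf2 and the fatty acid enzyme gene Acsl1 (1.03 ± 0.63, SD, n = 11).

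The Irf2 bin was above 0 in every library. It stood at 0.37 and 0.70 in G0, 1.10 in G2, 0.54 in mitosis, 0.50 and 0.78 at 1 h, 0.74 and 1.20 at 2 h, 1.08 and 1.89 at 30 min, 1.90 at 3 h and 1.92 at 4 h. Its 2 proximal neighbours were also among the highest 10: the bin of Pdlim3 and Ufsp2 (0.73 ± 0.59) and that of Sorbs2, an adaptor gene of actin stress fibres (0.66 ± 0.41). The bin of Palld, an actin scaffold gene, and Ddx60, a helicase gene of the interferon response, reached 0.79 ± 0.49. The bin of Purg, Tex15 and Ppp2cb at 34.5 Mb reached 0.76 ± 0.53.

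The remaining 5 of the 10 highest were the bins of Galnt7 (0.62 ± 0.25), of Slc25a15, Mrps31 and Slc20a2 on the proximal side (0.61 ± 0.62), of Glra3 and Hpgd (0.61 ± 0.45), of the growth factor gene Nrg1 (0.60 ± 0.36) and of Aadat, Mfap3l and Clcn3 (0.59 ± 0.55). Each was above 0 in 11 of 11 libraries, except the last, in 10. The 5 lowest were below 0 in 11 of 11: the bins of the defensin genes from 22 Mb (-3.47 ± 0.71) and from 22.5 Mb (-2.12 ± 1.42), of the bin from 19.5 Mb (-2.56 ± 0.87), of Ccdc7 (-1.70 ± 0.90) and of the neuronal gene Gpm6a (-1.69 ± 0.75). The defensin genes are a repeated family, and how the submitters placed reads with several matches is not given in the sources used here.

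**Figure D3:**
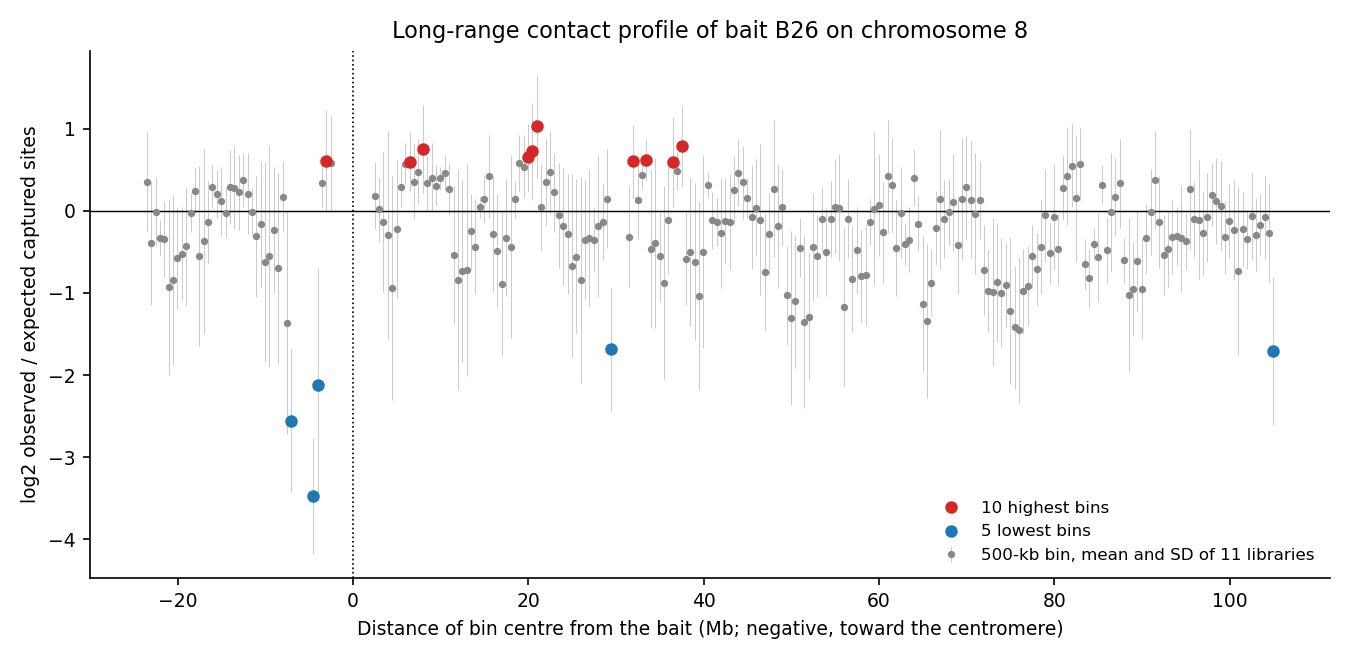
Mean log2 of observed over expected captured sites (y axis) per 500-kb bin beyond 2 Mb against distance from the bait (Mb, x axis), with the SD over 11 samples as a grey line, the 10 highest bins in red and the 5 lowest in blue. The highest bin lies at 21.0 Mb (1.03) and the lowest, at the defensin genes on the proximal side, at -3.47.

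The relation of this profile to gene content differed between libraries. Over the 242 bins, Spearman's correlation of the mean profile was 0.44 with GC content and 0.47 with gene number. By library, the correlation with gene number was -0.10 and -0.19 in G0, -0.03 in G2, 0.03 in mitosis, 0.01 and 0.44 at 1 h, 0.43 and 0.50 at 2 h, 0.42 and 0.54 at 30 min, 0.52 at 3 h and 0.56 at 4 h. Columns 1 to 5 lay near 0 or below it, and columns 6 to 12 between 0.42 and 0.56. Bins of one library share its depth, so these are descriptions of the libraries and carry no p.

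HindIII sites themselves are denser where GC is low (Spearman correlation -0.56 over the same bins), so the expectation was also set per HindIII site, an alternative chosen after seeing the data. The correlation with gene number then was 0.03 and -0.08 in G0, 0.08 in G2, 0.18 in mitosis, 0.16 and 0.55 at 1 h, 0.51 and 0.56 at 2 h, 0.52 and 0.58 at 30 min, 0.56 at 3 h and 0.59 at 4 h. The sign turned in G0 replicate 2 and in G2 and in no other column, and columns 1 to 5 stayed below columns 6 to 12. Weighted by reads and per HindIII site, the values were -0.02 and -0.09 in G0, -0.02 in G2, 0.36 in mitosis, 0.23 and 0.62 at 1 h, 0.64 and 0.59 at 2 h, 0.62 and 0.54 at 30 min and 0.51 at both 3 h and 4 h. The share of long-range sites captured was 32.3% and 31.6% in G0, 12.3% in G2, 44.1% in mitosis, 35.6% and 39.3% at 1 h, 38.1% and 24.3% at 2 h, 33.4% and 7.85% at 30 min, 4.73% at 3 h and 3.60% at 4 h. At 35.6% and 39.3% captured, 1 h replicate 1 and 1 h replicate 2 had correlations per HindIII site of 0.16 and 0.55. The libraries that captured least, 30 min replicate 2, 3 h and 4 h, had 0.58, 0.56 and 0.59. The part of the captured share in the correlations was not tested.

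**Figure D4:**
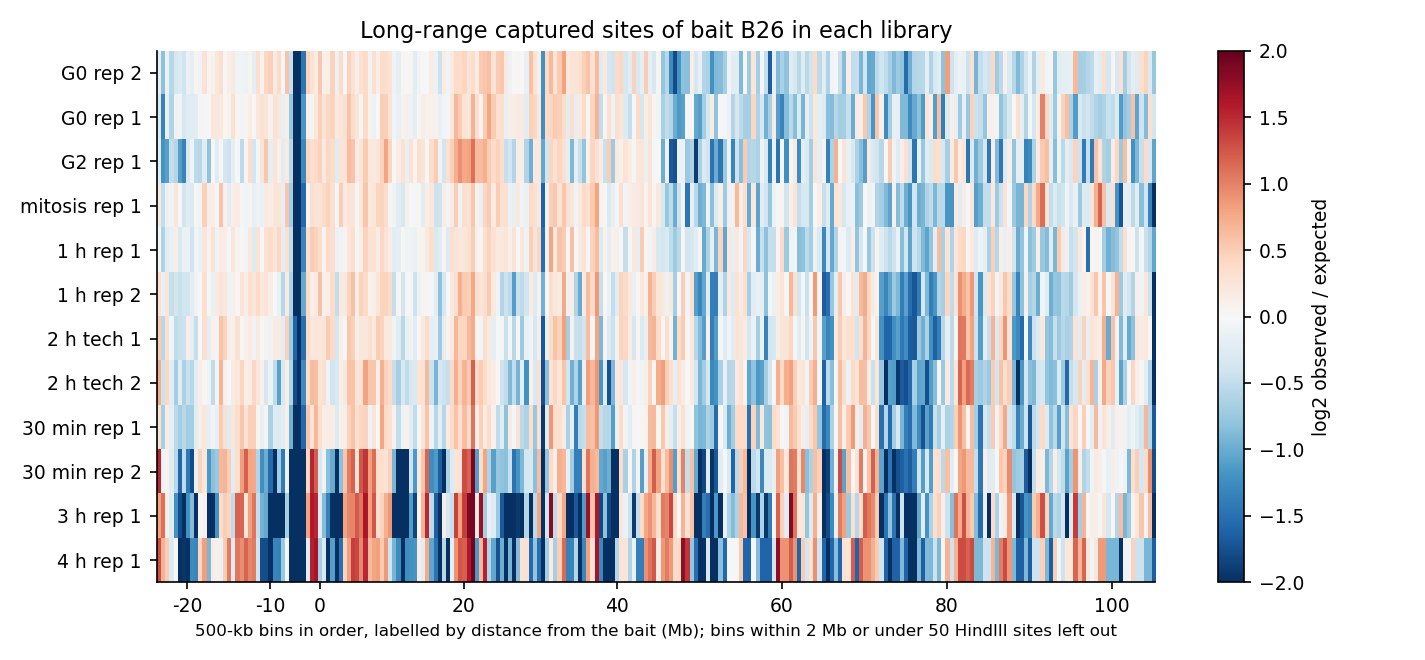
Log2 of observed over expected captured sites (colour, cut off at -2 and 2) in 500-kb bins (x axis, in order along chromosome 8 and labelled by distance from the bait in Mb) for each of the 12 B26 libraries in column order (y axis). The red stripe near 21.0 Mb, at Irf2, runs through every library, and the last 3 libraries show the strongest contrast between bins.

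A list of 22 landmark genes marks 17 bins of the long-range region, and the values below are per bin with the expectation set per bin. The bin of Ctcf, which encodes the zinc finger protein that anchors chromatin loops, has 27 genes and stood at -0.11 and -0.73 in G0, 0.15 in G2, -0.24 in mitosis, 0.38 and 0.92 at 1 h, 1.08 and 1.17 at 2 h, 0.89 and 0.78 at 30 min, 0.75 at 3 h and 1.31 at 4 h. The bin of Upf1, a factor of nonsense-mediated decay, and Crtc1, a CREB coactivator gene, has 23 genes and stood at -0.55 and -0.51 in G0, -0.08 in G2, -0.76 in mitosis, -0.30 and -0.12 at 1 h, 0.34 and 0.47 at 2 h, 0.12 and 0.63 at 30 min, 0.98 at 3 h and 1.04 at 4 h. The Ctcf bin was at 0.38 or less in columns 1 to 5 and at 0.75 or more in columns 6 to 12. The Upf1 and Crtc1 bin was below 0 in columns 1 to 6. With the expectation per HindIII site the Upf1 and Crtc1 bin entered the 10 highest (0.61 ± 0.58, above 0 in 10 of 11).

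The bins with 1 or 2 genes did not move together. The bin of the giant gene Csmd1 stood at 0.47 and 0.09 in G0, -0.20 in G2, 0.15 in mitosis, 0.36 and 0.14 at 1 h, -0.10 and -0.11 at 2 h, -0.65 and -1.54 at 30 min, -2.87 at 3 h and -2.53 at 4 h. The bin of the cadherin gene Cdh8 was above 0 in 1 of 11 libraries, G2 (0.30), and lowest at 3 h (-3.28), with a mean of -1.22 ± 0.89. The bin of Cntnap4, a neuronal adhesion gene, had a mean of -1.02 ± 0.94. The bin of the obesity-associated gene Fto and of Irx3 stood at -0.87 and -0.68 in G0, 0.25 in G2, 0.82 at 3 h and 0.28 at 4 h, and that of the cell polarity gene Pard3 ran from -1.06 in G0 replicate 1 to 0.48 in 30 min replicate 2. The Palld bin was above 0 in every library and reached 1.65 at 4 h. At 30 min replicate 1 it was 0.87 by column but 0.03 in the thinning behind its mean, so a single value can shift with the thinning. The bin of the transcription factor gene Maf had a mean of 0.38 ± 0.60 and that of Aga, a lysosomal enzyme gene, of -0.18 ± 0.87. Of the other landmark bins, that of Junb had a mean of 0.42 ± 0.69, Efnb2 of 0.25 ± 0.27, Irf8 and Cox4i1 of -0.11 ± 0.73, Dnase2a and Prdx2 of -0.26 ± 0.62, Zfp42 of -0.32 ± 0.72 and Myo9b of -0.74 ± 0.71. The lowest values of Csmd1 fell in the 3 libraries that captured the fewest long-range sites.

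Profiles of library pairs over the 242 bins correlated most for 1 h replicate 2 and 2 h technical replicate 1 (r = 0.893), the pair that shared most sites, and least for G0 replicate 1 and 3 h (r = 0.146). Without those 2 libraries in doubt, the Spearman correlation of the mean profile was 0.45 with GC and 0.47 with gene number.

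Single sites recurred in the order of their distance. Of 1228 near sites, 298 (24.3%) were captured in all 12 libraries and 1038 (84.5%) at least once. Of 38242 long-range sites, 50 (0.131%) were captured in all 12 and 26798 (70.1%) at least once. Of 783872 sites on other chromosomes, 5 were captured in all 12, and 159454 (20.3%) at least once.

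The 50 long-range sites captured in all 12 libraries tie in recurrence, so the 10 with the highest geometric mean of read share were named. All 10 lay between 23561183 and 24365763, proximal to the near window. The part of distance in this ranking by reads was not tested. Of these 10, 7 lay in introns, of Ank1, Golga7, Plat, the lipid enzyme gene Agpat6 and the histone acetyltransferase gene Myst3. A further 1 lay 4.23 kb from Ikbkb, the kinase gene of NF-kB activation. Their geometric means ran from 129 to 171 reads per 1000000 reads of a library. The Ank1 site printed above led them with 101 to 1042 reads a library. The same 10 sites were also captured in 22 to 40 of 58 libraries of the other chromosome 8 baits, so other baits met them too.

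Of the 10 most regular sites on other chromosomes, 7 lay in Sfi1 on chromosome 11, which encodes a centrin-binding protein of the centrosome. The 7 were captured in 40 to 51 of the 58 libraries of other baits, and the Sfi1 site printed above had a geometric mean of 118.5 reads per 1000000. How the submitters placed reads with several matches is not given for this region either. The other 3 were a site of Skil, a repressor gene of TGF-beta signalling, on chromosome 3 (11 of 12 libraries and 26 of 58), a site of I0C0044D17Rik on chromosome 4 (11 of 12 and 23 of 58) and chr4:54151213, 276 kb from Tmem38b. That last site was captured in 12 of 12 B26 libraries with 1 to 11 reads and in 7 of 58 libraries of other baits.

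Captured sites on other chromosomes were unevenly spread over them. As log2 of captured sites per HindIII site over the library's mean (mean ± SD, n = 11), chromosome 19 stood at 0.66 ± 0.11, chromosome 15 at 0.51 ± 0.06, chromosome 17 at 0.50 ± 0.05, chromosome 10 at 0.41 ± 0.04 and chromosome 11 at 0.39 ± 0.08. The X chromosome stood at -1.02 ± 0.15, chromosome 14 at -0.73 ± 0.08, chromosome 12 at -0.63 ± 0.09, chromosome 18 at -0.51 ± 0.09 and chromosome 7 at -0.21 ± 0.05. Across 19 chromosomes Spearman's correlation with genes per Mb was 0.46, a description over few points. The mean of the 5 other chromosome 8 baits was close for most of them, such as 0.61 for chromosome 19 and -0.74 for chromosome 14. Chromosome copy number in this tumour-derived line was not measured.

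B26 differed from the mean of the 5 other baits on 4 of 19 chromosomes (21.1%), by exact sign-flip permutation over 11 titles with adjustment over 19. Baits B87 and B118 have no library titled mitosis, so for that title the mean was taken over the remaining baits. Their pairing with B26 at G0 replicate 1 and G2 is in doubt, as above. B26 was higher on chromosome 11 by 0.10 (9 of 11 titles), on chromosome 13 by 0.08 (9 of 11) and on chromosome 15 by 0.09 (10 of 11), each with an adjusted exact permutation p of 0.0247. It was lower on X by 0.14 (difference -0.14 ± 0.13, lower in 9 of 11, adjusted exact permutation p = 0.0418). These shifts were small beside the spread between chromosomes, the X call was lost without the libraries in doubt and in 9 of 11 fits with a title left out, and 0 of 19 passed without the G0 libraries, which leaves 9 titles.

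**Figure D5:**
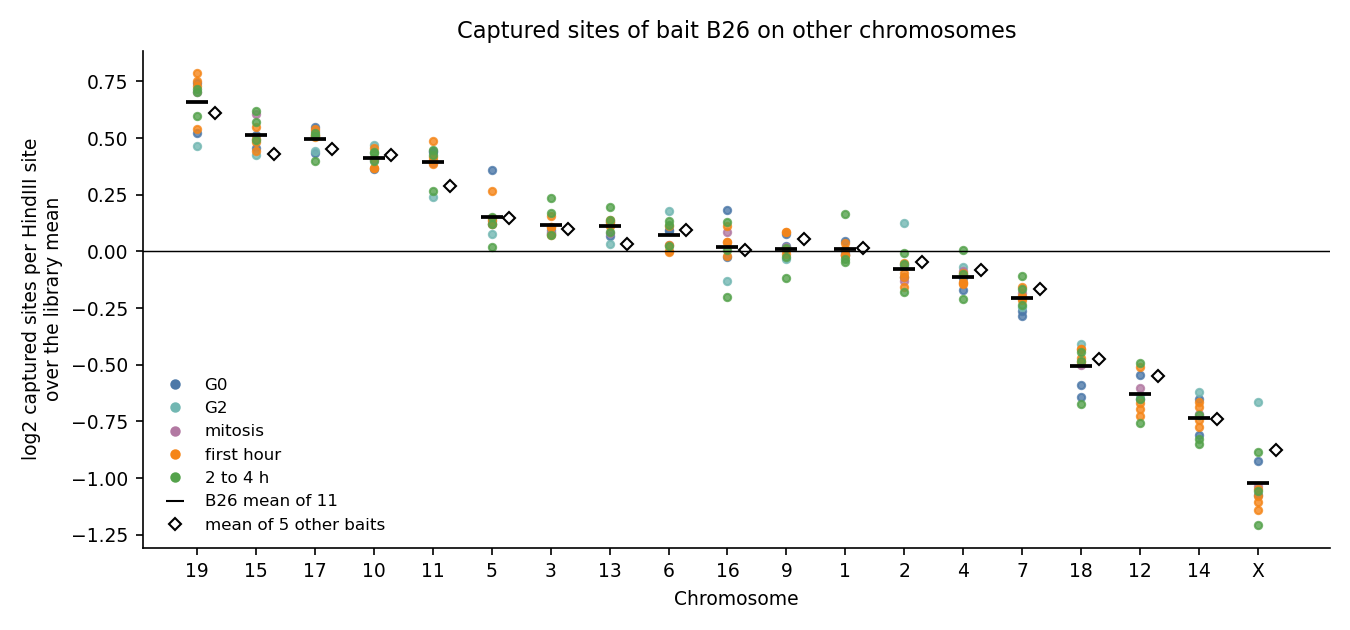
Log2 of captured sites per HindIII site over the library's mean (y axis) for each other chromosome (x axis, ordered by the B26 mean), with 1 point a B26 sample coloured by titled group, a bar for the mean of 11 and a diamond for the mean of the 5 other chromosome 8 baits. Chromosome 19 is highest at 0.66 and X lowest at -1.02, and the diamonds mostly fall from left to right with the B26 means.

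In 1-Mb bins of the other chromosomes (2448 bins with 100 HindIII sites or more), captured sites per HindIII site over the library's mean gave a Spearman correlation of 0.53 with GC content, 0.37 with gene number and 0.88 with the mean profile of the 5 other baits. In single libraries the correlation with GC was 0.18 to 0.59. With bins ranked by gene number into 4 equal classes, the class with fewest genes stood at 0.82 ± 0.09 of the mean, the next at 0.94 ± 0.04, then 1.08 ± 0.03, and the class with most genes at 1.19 ± 0.11 (SD, n = 11). A total of 104 bins were above the mean in all 11 samples.

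The highest bin was the one at 3 Mb of chromosome 11, with Sfi1, Drg1, Eif4enif1 and Patz1 (4.88 ± 1.85, and 3.68 at the other baits), which holds the Sfi1 sites whose read placement is in doubt as above. It was followed by the bins at 80 Mb and 79 Mb of chromosome 10, with Atp8b3, Rexo1 and Klf16 (3.499 ± 1.71, other baits 2.65) and with Mier2, Theg and Shc2 (2.96 ± 0.76, other baits 2.65). The remaining 7 of the 10 highest lay on chromosomes 19, 17 and 15, at 2.53 to 2.81. They included the bins of Nudt8 and Gstp1, of the transcription factor gene Btaf1 with Cpeb3, of Myof, and of Mkl1 and St13. The 5 lowest, of which 4 lay on chromosome 12 and the last among the pheromone receptor genes of chromosome 7, had 0 captured sites in all libraries. Whether reads could be placed uniquely in these 5 bins was not tested.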

How the data were processed

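Per the labels, 4C-seq reads were counted by the submitters per HindIII site; the deposited table holds raw counts, with no normalization, for 109 libraries. The submitters' processing notes name the aligner BWA 0.5.9 and the genome build mm9. All 823352 sites matched AAGCTT of the mm9 reference given here. The 12 B26 columns were matched to samples by title. Members, gene lists and comparisons were chosen with earlier results of these data known.

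Reads and captured sites (1 read or more) were summed beyond 20 kb of the bait. Shares were compared by exact permutation. Read counts in 100-kb, 500-kb and 5-Mb bins were tested with edgeR 4.0.16 (quasi-likelihood, TMM, filterByExpr, Benjamini-Hochberg, threshold 0.05) in R 4.3.3, with DESeq2 1.42.0 as the alternative. Of these, edgeR alone was also run on counts simulated from the B26 bins. The long-range profile used a lowess of span 0.5 on log distance, a pseudocount of 0.5 and 10 draws per library. Regions were named by fixed ranks: the called bins without overlap, up to 5 a direction, the 5 near bins a side with the highest captured-site share, the 10 highest and 5 lowest long-range and other-chromosome bins, and the 10 most recurrent sites of each class. Ties among recurrent sites were broken by the higher geometric mean of read share. Gene annotation was the mm9 annotation given with the genome. P-values measure only the spread between these libraries. The numbers of same-numbered libraries did not pair them (r over 244 bins 0.02 for G0 and 30 min, -0.06 for G0 and 1 h, 0.44 for 30 min and 1 h).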

Additional observations from a re-analysis of the deposited data

Results flagged for a closer look

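In the first hour, library 30 min replicate 2 stood apart from the other 3 libraries on 2 measures, by Dixon's gap test for 1 sample of a group of 4. Near sites were 15.5% of its captured chromosome 8 sites, where the nearest of the others had 6.79%. It captured 45.0% of the near HindIII sites, where the nearest of the others captured 74.5%. Over 58 groups of values checked, chance alone flags about 1 in 20.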

How the results depend on the processing

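Of the alternatives run on the results that answer a comparison, 293 were labelled the same, 16 stronger, 15 weaker, 8 reversed and 2 moved. The cause was not tested in any. For shares, the same meant an unchanged sign and call, and stronger or weaker a call made or lost. For bins and chromosomes, these labels compared only the number of calls, not their direction or identity. Scaling near bins by read totals thus counted as the same, although the directions of its calls differed. The alternatives without the libraries in doubt, with reads capped, and with the expectation per HindIII site were chosen after seeing the data. Captured sites in place of reads turned the near difference to B44 to -0.0186 and to B118 to 1.12, and the chromosome 8 difference to B44 to 12.9 and to B118 to 3.99, and left the near difference to B87 at 0.11. The near difference to B44 no longer passed with 50 kb left out around the bait (10.96), without G0 (13.8) or without the libraries in doubt (9.70). The chromosome 8 difference to B118 passed without G0 (-14.8), and the near difference to B118 passed without the libraries in doubt (-6.88). The chromosome 8 difference to B87 was -1.19 without G0 and -0.685 without G0 replicate 1. Without 1 h replicate 1, the chromosome 8 difference of 2 to 4 h from the first hour was 2.37 and the proximal one -1.15. Leaving out each library in turn, the near difference after mitosis ran from 9.41 to 18.6, the chromosome 8 one from -12.5 to 2.37 and the proximal one from -1.15 to 2.46. For G0 against 2 to 4 h the ranges were -33.6 to -24.5 (near) and 29.6 to 36.9 (chromosome 8). Against other baits they were 12.3 to 16.9 (B44), 3.48 to 3.93 (B87) and -5.52 to -3.07 (B118) for the near share, and -6.51 to -4.92 (B44), -0.685 to 5.27 (B87) and -12.5 to -5.84 (B118) for the chromosome 8 share. Near bins called between G0 and 2 to 4 h numbered 13 with DESeq2, 5 in 200-kb bins, 0 on captured sites and 0 to 11 with a library left out. Long-range bins of that contrast numbered 92 with DESeq2, 23 scaled by read totals, 40 in 1-Mb bins, 44 on captured sites and 0 to 37 with a library left out, and other-chromosome bins 9 with DESeq2. Between 2 to 4 h and the first hour, DESeq2 called 1 long-range bin and 1 other-chromosome bin, and leaving out a library called 0 to 1 near and 0 to 4 long-range bins. Chromosomes that differed from the other baits numbered 0 without G0 and 3 to 4 with a title left out. The highest site sharing was 20.1 times at 2 reads or more and 3.55 times on chromosome 8 beyond 2 Mb. With the replicate number as a block, 7 near bins were called between G0 and 2 to 4 h, of which 6 were among the 8, and the replicate block called no other bin; same-numbered libraries were not shown to be pairs. The 3 h, 4 h and second 30 min libraries captured the fewest near sites, 468 to 553, which limits the precision of their shares of captured sites.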
